A study of Mus musculus with 2 samples.

Results

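Prostaglandins are lipid signals made from arachidonic acid, which phospholipase A2 frees from membranes and which the cyclooxygenases turn into prostaglandin H2, the common precursor. Terminal synthases then make prostaglandin E2 or prostacyclin, which act on receptors at the cell surface and are broken down inside cells. In the vessel wall prostacyclin relaxes smooth muscle and restrains platelets, while prostaglandin E2 can relax or contract the vessel depending on the receptor. Here 10 genes of this pathway, chosen by symbol with earlier results of these data known, were followed out of 32285 genes counted. These were the phospholipase Pla2g4a, the cyclooxygenases Ptgs1 and Ptgs2 and the terminal synthases Ptges, Ptges3 and Ptgis. The others were the receptors Ptger2, Ptger4 and Ptgfr and the breakdown enzyme Hpgd.

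The data came from 1 droplet single-cell library of primary aortic vascular smooth muscle cells (VSMCs) of C57BL/6 mice. Cultures of 4 groups were labelled with antibodies that carry a DNA hashtag and were then mixed: young cells from mice of 12 weeks, old cells from mice of 58 to 78 weeks, young cells given 100 nM angiotensin II (AngII) during 48 h, and old cells that received 20 nM siRNA against the mechanosensitive channel Piezo1 (siPiezo1). Old control cells received a non-targeting siRNA in the study's immunostaining, but whether the sequenced old cells did is not stated in the sources used here. No replicate culture could be told apart within a group, so each group is 1 culture and no test between groups was possible. The features name only the hashtags, 1 to 4. Group names follow the numbers in the study's schematic (tag 1 young, tag 2 old, tag 3 young + AngII, tag 4 old + siPiezo1). The schematic does not call them hashtag numbers, so the tag is kept beside each name.

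In all, 13045 barcodes were taken as cells, with a median of 7915 unique molecular identifiers (UMIs, each counting 1 RNA molecule) and 2884 genes. Tag 1 marked 3144 cells, tag 2 marked 497, tag 3 marked 1500 and tag 4 marked 1529, while 5307 cells (40.7%) had no tag and 1068 had more than 1. Median depth was 6816 UMIs in tag 1 and 9454 to 10663 in the other 3 tags. The highest tag count of a cell was a median of 11.9 times the next in tag 1 and 5.78 times in tag 3, but only 2.54 and 2.21 times in tags 2 and 4, so the latter 2 groups are the least securely assigned. Cells holding Y-linked but not Xist transcripts made up 54.1, 19.5, 55.5 and 13.8% of tags 1 to 4, so the cultures differed in their mix of male and female cells. The median share of mitochondrial UMIs was 0.224% in tag 3 and 1.08 to 1.86% in the other tags. Scrublet called 19.9 to 23.3% of each tag's cells doublets. The VSMC markers were detected in every tag (9 of 9 genes, summed level 692 to 1718 counts per 1000000, CPM), although the contractile myosin Myh11 was at 1.94 to 7.89 CPM, and the 6 macrophage and 6 endothelial markers each summed to at most 11.7 CPM. Markers of fibroblasts, 6 genes led by Dcn, summed to 529, 555, 725 and 766 CPM in tags 1 to 4. Of the 7 VSMC markers of at least 5 CPM, 6 were higher by at least 1.5 fold in tag 2 than in tag 1 (median ratio 1.75), against 9.39% of all genes. Acta2 was at 378 and 568 CPM in tags 1 and 2, and Tagln at 415 and 957 CPM. The study reports less ACTA2, MYH11 and TAGLN transcript in old cells by quantitative PCR, and less alpha-smooth muscle actin by staining. From its single-cell data it describes the young cells as rich in ACTA2, MYL9 and TAGLN. Under this tag naming, the direction in tags 1 and 2 was the opposite of these reports. In tag 4, 6 of the 7 were lower by at least 1.5 fold than in tag 2 (median ratio 0.443), against 1.52% of all genes. The part of these markers in the results below was not tested. Piezo1 stood at 89.6 CPM (95% interval 82.0 to 97.9) in tag 2 and 86.9 CPM (82.4 to 91.5) in tag 4, intervals that overlap, so its transcript does not check the siPiezo1 label. The study, in contrast, reports a lower Piezo1 level after siPiezo1 in its single-cell data and by quantitative PCR.

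The upstream DNA of the inducible and constitutive cyclooxygenases and of the inducible prostaglandin E synthase is shown because of differences seen in old cells. Among the members of at least 5 CPM, Ptgs2 and Ptges differed most from tag 1 in both groups of old cells, and Ptgs1 differed less. In tag 3, Ptgs2 also differed most, but the Ptges ratio to tag 1 (1.42) was below those of Ptgis (1.71) and Pla2g4a (1.45). Each line gives 250 bases before and the first 30 bases after a RefSeq transcript start (GRCm38.p6), in the direction of transcription. Capitals mark matches, on either strand, to 6 motifs that were searched. ACGTCA is the core of the element through which cyclic AMP signals act on many genes. The E-box, bound by factors of the helix-loop-helix class, was taken as CACGTG in its palindromic form. C/EBP factors, which take part in inflammatory and metabolic gene control, were represented by the palindrome TTGCGCAA as their strongest form. A GC box, common near the starts of broadly used genes, was written as GGGCGG in the search. The TATA box, which positions the start of transcription, was searched as TATAAA without its flanking letters. A consensus of NF-kB, a factor of inflammatory signals, was searched as well.
Ptgs2, chr1:150099781-150100060, plus strand: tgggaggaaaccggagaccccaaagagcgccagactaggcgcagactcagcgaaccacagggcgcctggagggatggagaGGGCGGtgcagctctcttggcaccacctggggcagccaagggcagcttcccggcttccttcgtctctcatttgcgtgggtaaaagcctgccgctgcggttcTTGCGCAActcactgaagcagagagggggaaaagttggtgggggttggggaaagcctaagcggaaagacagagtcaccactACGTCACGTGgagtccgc
Ptges, chr2:30903268-30903547, minus strand: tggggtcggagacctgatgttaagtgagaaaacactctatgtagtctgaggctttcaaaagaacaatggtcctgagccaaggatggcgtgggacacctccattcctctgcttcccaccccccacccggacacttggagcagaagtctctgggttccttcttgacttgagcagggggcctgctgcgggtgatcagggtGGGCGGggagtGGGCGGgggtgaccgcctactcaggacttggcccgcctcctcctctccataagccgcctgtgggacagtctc
Ptgs1, chr2:36230176-36230455, plus strand: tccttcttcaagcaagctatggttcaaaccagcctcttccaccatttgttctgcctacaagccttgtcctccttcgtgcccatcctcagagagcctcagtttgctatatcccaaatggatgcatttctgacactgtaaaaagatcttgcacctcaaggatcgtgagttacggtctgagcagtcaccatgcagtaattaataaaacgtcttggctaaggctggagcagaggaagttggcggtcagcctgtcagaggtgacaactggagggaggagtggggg
The Ptgs2 window held a GC box from 170 to 165 bases before the start, the C/EBP palindrome from 69 to 62 bases before it, and, from base 13 to base 22 after it, a cyclic AMP core and an E-box that share 2 bases. The Ptges window held 2 GC boxes, and the Ptgs1 window matched none of the 6 motifs. Pla2g4a, which is not shown, differed from tag 1 more than Ptgs1 did in both old tags. Its windows held 0 matches and 1 match, to the TATA motif. Of 32851 RefSeq windows of 300 bases, 0.183% held the C/EBP palindrome, 7.51% the cyclic AMP core, 7.15% the E-box, 35.7% the GC box, 1.2% the NF-kB motif and 13.6% the TATA box. A match describes the letters and does not show that a factor binds. A window was found for 9 of the 10 genes, and none for Ptgis. In GENCODE vM21 (GRCm38), Ptgs2 spans chr1:150100031-150108227 on the plus strand, Ptges spans chr2:30889471-30929863 on the minus strand and begins upstream of the RefSeq start used here, and Ptgs1 spans chr2:36230426-36252272 on the plus strand.

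Most of the signal lay in a few of the genes. Levels are given as CPM, the UMIs of a gene per 1000000 UMIs of a tag's cells, with exact Poisson 95% intervals, and ratios have exact binomial 95% intervals; both cover counting error only. With at least 5 CPM over all cells, 6 of the 10 genes (Pla2g4a, Ptgs1, Ptgs2, Ptges, Ptges3 and Ptgis) were measured well enough to be read by a rule of size, a ratio of at least 1.5 in either direction. The receptors Ptger2, Ptger4 and Ptgfr and the enzyme Hpgd fell below it.

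**Figure D1:**
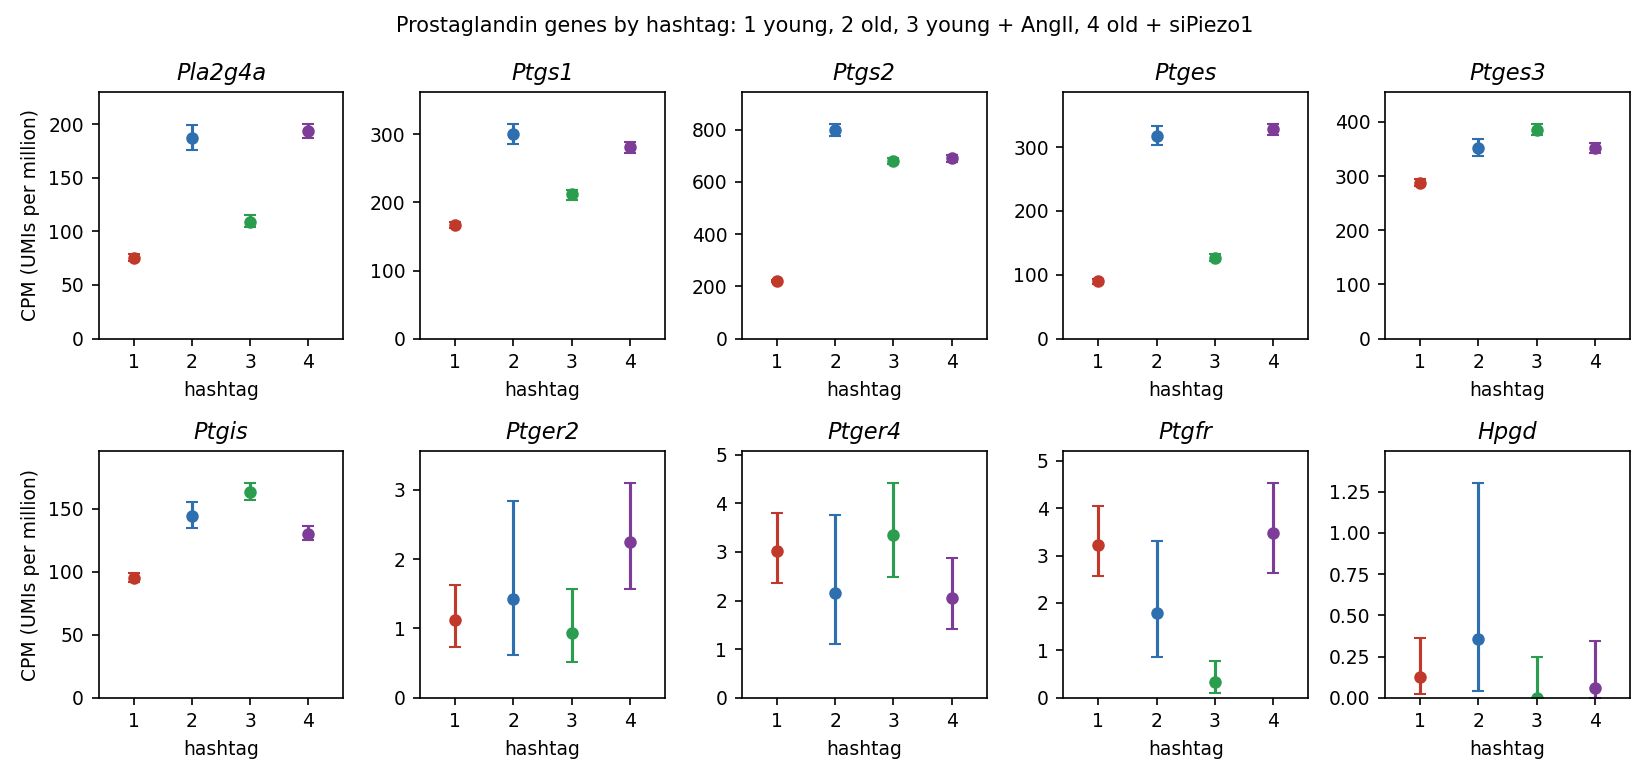
CPM (vertical axes, each from 0) of the 10 genes in cells of hashtags 1 to 4; points are summed levels of 1 culture each and bars are exact Poisson 95% intervals for counting error. Pla2g4a, Ptges and Ptgs1 were highest in tags 2 and 4, Ptgs2 was high in tags 2, 3 and 4, and the 4 genes in the last panels stayed below 5 CPM.

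Pla2g4a, the cytosolic phospholipase A2 that frees arachidonic acid, was at 75.5 CPM (72.1 to 79.1) in tag 1 (young), 187 CPM (176 to 199) in tag 2 (old), 109 CPM (104 to 115) in tag 3 (young + AngII) and 194 CPM (187 to 200) in tag 4 (old + siPiezo1). Tags 2 and 4 were high with overlapping intervals, tag 3 was intermediate and tag 1 lowest.

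Ptgs1, the constitutive cyclooxygenase, was at 167 CPM (162 to 172) in tag 1, 301 CPM (286 to 315) in tag 2, 212 CPM (204 to 219) in tag 3 and 281 CPM (273 to 289) in tag 4. The order of the tags was that of Pla2g4a apart from tags 2 and 4, whose intervals overlapped in both genes. Ptgs2, the cyclooxygenase induced by growth factors and inflammatory signals, stood at 220 CPM (215 to 226) in tag 1, 797 CPM (774 to 821) in tag 2, 680 CPM (667 to 693) in tag 3 and 690 CPM (677 to 703) in tag 4. Tag 1 was thus the only tag with a low level, and tags 3 and 4 overlapped.

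Ptges, the inducible microsomal synthase that turns prostaglandin H2 into prostaglandin E2, was at 89.8 CPM (86.1 to 93.7) in tag 1, 318 CPM (303 to 333) in tag 2, 127 CPM (122 to 133) in tag 3 and 328 CPM (319 to 336) in tag 4. Unlike Ptgs2, it was high in the 2 old tags only. In tag 3 it was intermediate, at 1.42 times tag 1 (1.33 to 1.51), and nearer to tag 1 than to the old tags. Ptges3, a cytosolic prostaglandin E synthase also known as the HSP90 co-chaperone p23, ranged only from 288 CPM (281 to 295) in tag 1 to 386 CPM (376 to 396) in tag 3, with 352 CPM in both old tags. Ptgis, the prostacyclin synthase, was at 95.4 CPM (91.5 to 99.3) in tag 1, 144 CPM (135 to 155) in tag 2, 163 CPM (157 to 170) in tag 3 and 130 CPM (125 to 136) in tag 4. It was the one synthase besides Ptges3 that was highest in tag 3.

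The comparison of tag 2 with tag 1 addresses what differs between old and young VSMCs. From this same library, the study names PTGS2 among senescence genes concentrated in its old and AngII-treated young clusters. The direction of Ptgs2 in tags 2 and 3 against tag 1 was that of this report, in the same data. Ptgs2 was 3.62 times as high in tag 2 (3.48 to 3.76), Ptges 3.53 times (3.32 to 3.77), Pla2g4a 2.47 times (2.29 to 2.67), Ptgs1 1.80 times (1.70 to 1.90) and Ptgis 1.51 times (1.40 to 1.64), while Ptges3 was 1.22 times as high (1.16 to 1.29). Thus 5 of 6 measured members were higher by at least 1.5 fold, where 9.39% of 10265 genes of at least 5 CPM were, and 0 were lower, where 10.9% of genes were. Because the members were chosen with earlier results of these data known, such counts describe them, here and below, and are not a test. Ptgis lay just above the fold, and under some alternatives, given at the end, 4 members passed it. With clusters weighted equally, which rests on 1 cluster, 0 members passed it, and 3 passed a fold of 2. The median ratio was 2.14 over these 6 members and 1.02 over all genes. Without called doublets the Ptgs2 ratio was 6.24, its level in tag 1 being then 133 CPM in place of 220. In cells holding Y-linked but not Xist transcripts it was 4.74. In cluster 0 (described below), which alone held at least 50 cells of both tags, it was 1.5 (1.34 to 1.68), and there Ptges was 1.38 (1.17 to 1.65) and Pla2g4a 1.33 (1.06 to 1.68).

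The question of how AngII-treated young cells differ from untreated ones is addressed by tag 3 against tag 1, where Ptgs2 had the largest ratio of the 6 members. It was 3.08 times as high in tag 3 (2.98 to 3.19), followed by Ptgis at 1.71 times (1.62 to 1.81), Pla2g4a at 1.45 (1.35 to 1.55), Ptges at 1.42 (1.33 to 1.51), Ptges3 at 1.34 (1.29 to 1.39) and Ptgs1 at 1.27 (1.21 to 1.33). Hence 2 of 6 members passed 1.5 fold upwards, against 7.45% of all genes, and 0 downwards, against 8.48%. The median was 1.43 over the members and 1.03 over all genes. Pla2g4a and Ptges lay just under the fold, and both passed it without called doublets, where Ptgs2 was 5.07 times as high. With clusters weighted equally, which rests on 3 clusters, 1 member passed the fold. In cells holding Y-linked but not Xist transcripts Ptgs2 was 3.85 times as high, and at 2 to 15% mitochondrial UMIs 2.74 times. Tags 2 and 3 were each compared with the same tag 1 cells.

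Old cells with and without siPiezo1 are compared by tag 4 against tag 2, where the members hardly differed. These 2 tags are the least securely assigned, and the Piezo1 transcript does not check the siPiezo1 label, so the ratios do not show what a knockdown does. Ptgs2 was 0.865 times as high in tag 4 (0.836 to 0.896), Ptgis 0.902 (0.831 to 0.979), Ptgs1 0.935 (0.884 to 0.989), Ptges3 1 (0.95 to 1.05), Ptges 1.03 (0.977 to 1.09) and Pla2g4a 1.04 (0.965 to 1.11). None of the 6 passed 1.5 fold in either direction, where 2.88% of genes were higher and 1.52% lower, and the members' median was 0.967 against 1.02 over all genes. The Ptgs2 ratio was 0.989 (0.94 to 1.04) within cluster 0 and 0.802 (0.745 to 0.863) within cluster 1. Against the young cells of tag 1, tag 4 had Ptges at 3.65 times (3.47 to 3.83), Ptgs2 at 3.13 (3.03 to 3.23), Pla2g4a at 2.56 (2.42 to 2.72) and Ptgs1 at 1.68 (1.61 to 1.75). These 4 of 6 were higher by at least 1.5 fold, against 10.3% of all genes, and 0 were lower, against 9.89%. Without called doublets, Ptgs2 was 5.38 times as high. With clusters weighted equally, which rests on 2 clusters, 0 members passed 1.5 fold.

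**Figure D2:**
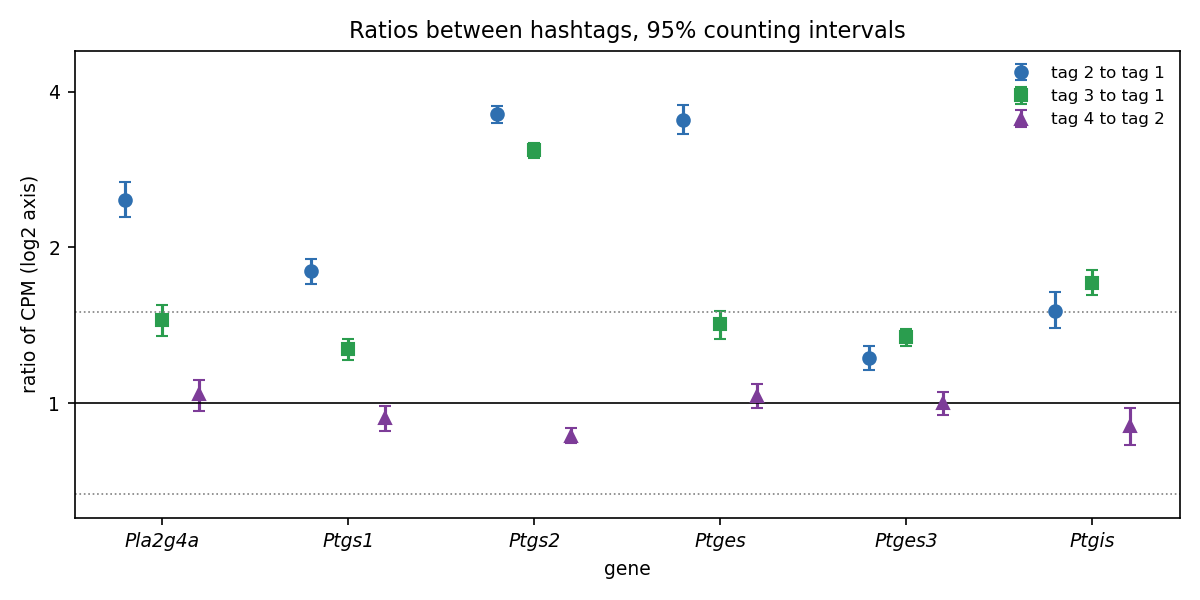
Ratio of CPM between hashtags (log2 axis) for the 6 genes of at least 5 CPM, with exact binomial 95% intervals; dotted lines mark 1.5 fold in each direction. Ptgs2 was above 3 for both tag 2 and tag 3, Ptges for tag 2 but not tag 3, and all 6 genes were near 1 for tag 4 against tag 2.

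Among the receptors, Ptger2 and Ptger4, which couple prostaglandin E2 to cyclic AMP, were barely detected. Ptger2 had 27, 8, 14 and 36 UMIs in tags 1 to 4, or 1.12, 1.43, 0.937 and 2.24 CPM, and was 2 times as high in tag 4 as in tag 1 (1.18 to 3.42). That ratio was 3.97 without called doublets and 3.83 in cells holding only Y-linked transcripts, while its interval held 1 at 2 to 15% mitochondrial UMIs (0.607 to 4.84) and with the top tag at least 3 times the next (0.979 to 4.28). Ptger4 had 73, 12, 50 and 33 UMIs, or 3.03, 2.15, 3.35 and 2.05 CPM, and the intervals of its ratios as reported all held 1. For tag 4 to tag 1 the interval lay below 1 without called doublets (0.352 to 0.977) and without cluster 4 (0.379 to 0.98). At 2 to 15% mitochondrial UMIs it lay below 1 for tag 4 to tag 1 (0.18 to 0.9) and tag 2 to tag 1 (0.0511 to 0.955). Ptgfr, the receptor of prostaglandin F2 alpha, had 78 UMIs in tag 1, 10 in tag 2, 5 in tag 3 and 56 in tag 4. Its level was 3.23 CPM (2.56 to 4.04) in tag 1 and 0.335 CPM (0.109 to 0.781) in tag 3, a ratio of 0.104 (0.0327 to 0.252) that stayed between 0.0651 and 0.234 under the 10 alternatives that gave one. In tag 2 the ratio to tag 1 was 0.554 (0.256 to 1.07) and could not be separated from 1 at this depth, although it was 0.277 (0.0736 to 0.736) by the highest tag at least 2 times the next with no cutoff and 0.32 (0.0646 to 0.972) with cutoffs multiplied by 1.5. Hpgd, which starts the breakdown of prostaglandins, had 8 UMIs in all 13045 cells: 3 in tag 1, 2 in tag 2, 0 in tag 3 and 1 in tag 4, the others in cells with no tag or several. The 0 in tag 3 allows up to 0.201 CPM by a floor of 3 counts, or 0.247 CPM by the exact Poisson interval used for the other levels.

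The same genes were then followed across cell states. Cells were grouped into 14 clusters with the 10 members and the pathway genes left out of the genes used to cluster. Cluster 0 was led by Igfbp5, Gzme and Il11 and held 1713 untagged cells of 2532, with tags 4 and 2 the commonest tags. Cluster 1 was led by genes of dividing cells (Mki67, Top2a) and held 1355 untagged cells of 1990, its tagged cells being mainly of tags 4 and 2. Cluster 2 was led by the interferon response genes Ifit3, Ifit1 and Rsad2 and was almost all tag 1, and cluster 6 held tag 1 cells with genes of dividing cells and interferon genes. Clusters 3 (Lce1g, Serpinb2, Wnt2) and 5 (Ccne2, Ccne1) were mainly tag 3 among their tagged cells, cluster 8 (Lmo7, Slpi, Dio2, Il1rl1) was mainly tag 4, and cluster 4 was 81.6% called doublets. All 6 listed mesothelial and epithelial markers were higher in cluster 12 (173 cells) than in the rest, with a summed level of 212 CPM. Upk1b, Wt1 and Msln were among its leading genes, while Upk3b, Krt19 and Krt8 were not.

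Ptgs2 varied most. Its level was 900 CPM (870 to 930) in cluster 8 and 825 CPM (813 to 837) in cluster 0, against 114 CPM (108 to 120) in cluster 2 and 70.0 CPM (62.7 to 77.9) in cluster 6, a range of 12.9 times over the 13 clusters of at least 100 cells. Ptges followed it at both ends, from 43.9 CPM in cluster 6 to 438 CPM in cluster 8 (9.97 times), and Pla2g4a ran from 50.8 CPM in cluster 2 to 270 CPM in cluster 8 (5.31 times). Ptgs1 spanned 2.82 times and Ptges3 2.01 times. Ptgs2 and Ptges were set apart in clusters 3 and 5, where 851 of 1855 and 335 of 760 cells carried tag 3 (young + AngII). Over all cells of these clusters Ptgs2 was at 621 and 508 CPM, near its level of 541 CPM in all cells. Ptges was at 110 and 92.2 CPM, below its 209 CPM in all cells. A like split was seen in clusters 10 and 11, where 136 of 181 and 168 of 179 cells carried tag 1 (young). Ptgs2 was there at 434 and 575 CPM and Ptges at 127 and 126 CPM. In cluster 13, of 86 cells, they were at 512 and 61.7 CPM. Ptgis had its highest level, 331 CPM (304 to 360), in cluster 12, against 86.3 to 175 CPM in the other clusters of at least 100 cells. With a coarser clustering cluster 12 was not kept apart, and Ptgis then spanned 1.87 times in place of 3.84.

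**Figure D3:**
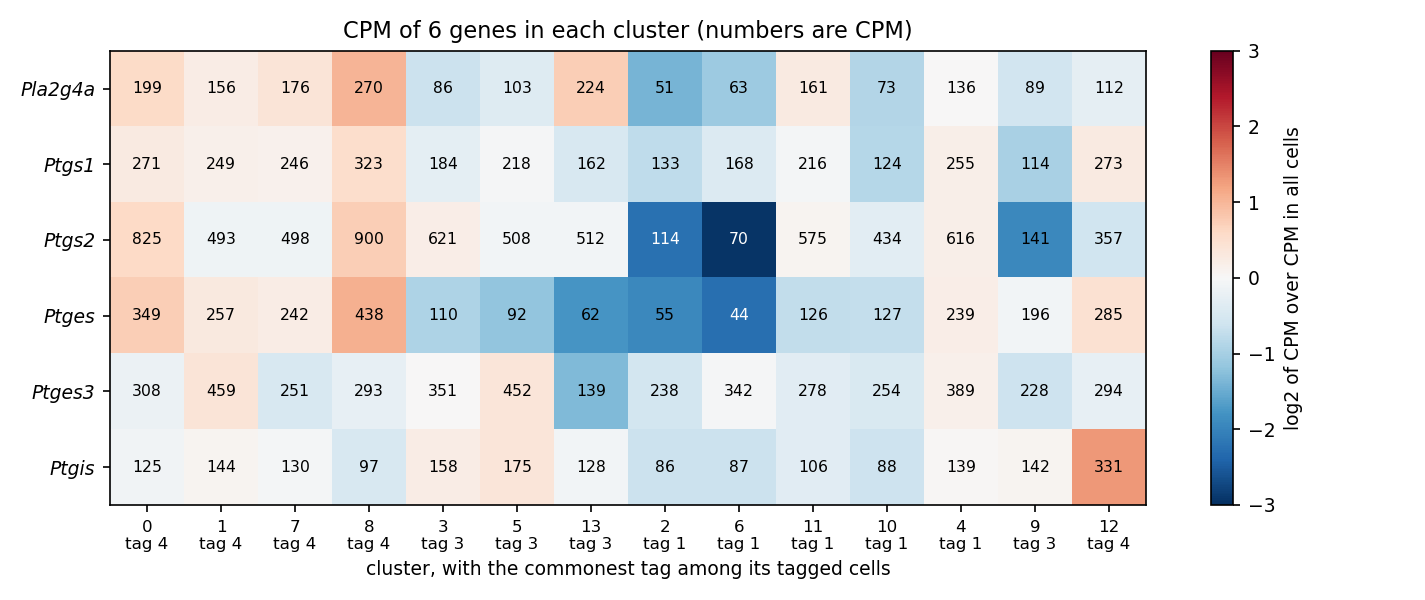
CPM (numbers) and log2 of CPM over the level in all cells (colour) of 6 genes in the 14 clusters, each labelled with its commonest tag. Ptgs2 and Ptges were lowest in clusters 2 and 6 and highest in clusters 8 and 0. In clusters 3 and 5, and also in 10, 11 and 13, Ptges was low while Ptgs2 was nearer its level in all cells.

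Over all their cells, the clusters of dividing cells 1, 5 and 6 had less Ptgs2 and more Ptges3 than their paired clusters. In 3 pairs of clusters with like commonest tags, where the first held more of the dividing markers (1 and 0, 5 and 3, 6 and 2), the ratio of Ptgs2 was 0.597 (0.582 to 0.612), 0.818 (0.788 to 0.849) and 0.613 (0.542 to 0.691). Ptges was likewise lower, at 0.736, 0.840 and 0.798. Ptges3 went the other way at 1.49, 1.29 and 1.44, while Pla2g4a was 0.786 in the first pair and 1.21 and 1.23 in the other 2. Cluster 10, mainly of tag 1, had 6 of the 8 dividing markers above the rest but was not paired. Its Ptgs2 was at 434 CPM, Ptges at 127 and Ptges3 at 254, against 114, 55 and 238 CPM in cluster 2. In the first pair, tag 1 cells showed no drop in Ptgs2, at 647 CPM (565 to 737) in cluster 1 and 622 CPM (558 to 691) in cluster 0. These levels rest on 30 and 58 cells, of which 50 and 39.7% were called doublets, and the part of doublets was not tested. Cells of tags 2, 3 and 4 were at 677, 644 and 543 CPM in cluster 1 and 931, 1326 and 921 CPM in cluster 0. The tag 3 values rest on only 24 and 49 cells.

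Within tag 1, the low Ptgs2 level belonged to the clusters that hold most of the cells. Clusters 2 and 6 held 72.6% of tag 1 cells, and tag 1 cells were at 103 CPM (97.1 to 109) in cluster 2 and 60.1 CPM (53.0 to 67.8) in cluster 6. In the other clusters with at least 50 tag 1 cells the level was 318 CPM in cluster 5, 322 in cluster 10, 466 in cluster 4, 481 in cluster 3, 552 in cluster 11 and 622 in cluster 0. Called doublets made up 8.26% of the tag 1 cells of cluster 2 and 17.7% of those of cluster 6, but 96.7% in cluster 4, 72% in cluster 5, 52.1% in cluster 3, 39.7% in cluster 0, 32.7% in cluster 11 and 18.4% in cluster 10; their part in these levels was not tested. The 6 interferon response genes summed to 2646 CPM in tag 1 and to 72.6, 270 and 83.9 CPM in tags 2, 3 and 4. Cluster 11, led by Cxcl10 and Ifit3 with the contractile gene Acta2, held 3289 CPM of these genes and 575 CPM of Ptgs2 (533 to 621) over all its cells, 35.2% of which were called doublets; cluster 2 held 3564 and 114 CPM. The part of the interferon response in the Ptgs2 level was not tested.

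Inside the 3 clusters with enough cells of tags 3 and 1, Ptgs2 was also higher in tag 3. It was 1.41 times that of tag 1 in cluster 3 (1.26 to 1.58), 1.67 times in cluster 4 (1.56 to 1.79) and 1.86 times in cluster 5 (1.60 to 2.18), in each case below the 3.08 over all cells. Called doublets made up 52.1, 96.7 and 72% of the tag 1 cells of these clusters, against 16.6, 89.2 and 10.7% of the tag 3 cells, and their part in these ratios was not tested. Ptges was 1.11 (0.855 to 1.47), 1.25 (1.11 to 1.40) and 2.01 times (1.36 to 3.10) in the same clusters. For tag 4 against tag 1, Ptgs2 was 1.48 times in cluster 0 (1.33 to 1.66) and 1.34 times in cluster 4 (1.26 to 1.44).

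Single cells showed whether a level came from many cells or few. Cells were thinned to 5000 UMIs each, leaving 2397, 476, 1364 and 1415 cells in tags 1 to 4. At least 1 Ptgs2 UMI was then found in 40.6% of tag 1 cells (exact Clopper-Pearson 95% interval 38.6 to 42.5), 84.9% of tag 2 (81.3 to 88.0), 75.1% of tag 3 (72.7 to 77.3) and 85.3% of tag 4 (83.3 to 87.1). Without thinning the shares were 45.6, 91.5, 83.0 and 91.6%. The median was 0 UMIs per thinned cell in tag 1, 3 in tag 2, 2 in tag 3 and 3 in tag 4, and cells with 5 or more UMIs made up 5.38, 34.5, 27.3 and 28.5%. In tag 3 Ptgs2 was the more uneven: its variance was 4.81 times its mean, against 3.28 in tag 2 and 3.06 in tag 4, and the top 10% of cells held 37.9% of its UMIs against 30.5% and 30.8%. In tag 1 the top 10% held 54.9%. For Ptges the shares of thinned cells with a UMI were 27.2, 69.7, 35.9 and 72.4%, and for Pla2g4a 28.8, 54.2, 37.6 and 55.1%.

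Free RNA limits what these shares can show. Barcodes of 1 to 100 UMIs held Ptgs2 at 449 CPM, Ptges at 196, Ptgs1 at 194, Pla2g4a at 108, Ptges3 at 341 and Ptgis at 125 CPM, and no cell type that should lack these genes could be named. The 449 CPM of Ptgs2 in these barcodes was above the 220 CPM of tag 1 cells and below the level in the other tags. The lowest share with a Ptgs2 UMI among thinned cells of the larger clusters was 21.2% (17.7 to 25.0). It was in cluster 6 (median 7714 UMIs), where 538 of 577 cells were of tag 1. The amount of free RNA in each cell was not measured, so its part in the shares of the tags was not tested.

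**Figure D4:**
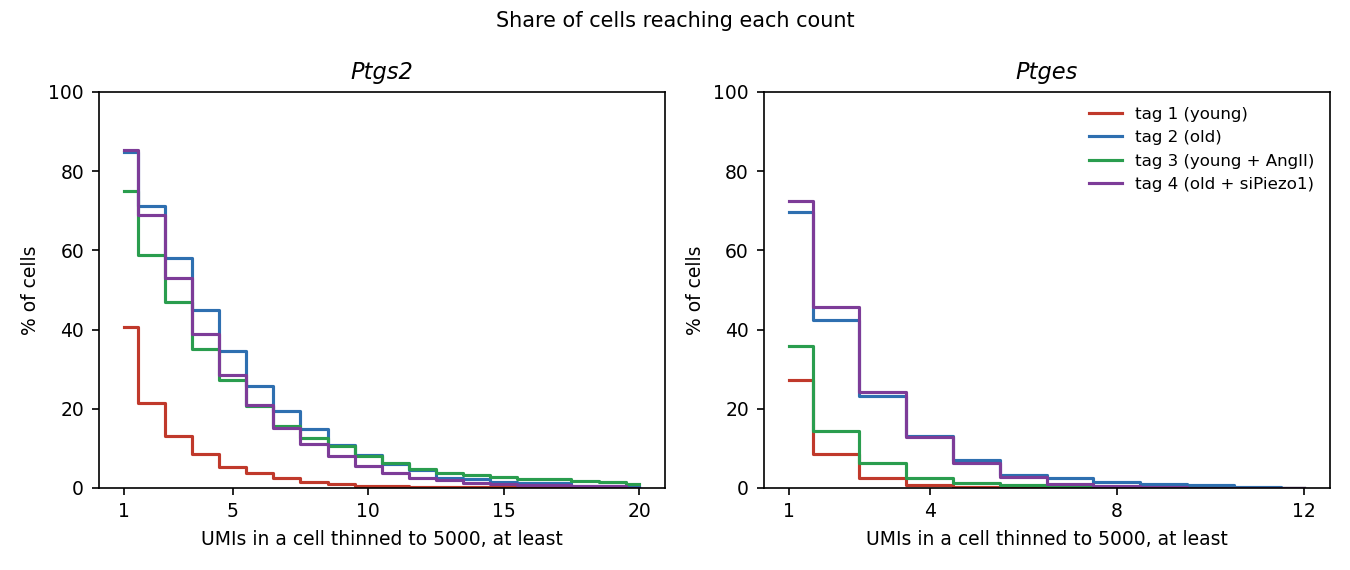
Percentage of cells (vertical axis) with at least the given number of Ptgs2 (left) or Ptges (right) UMIs after thinning each cell to 5000 UMIs, by hashtag. For Ptgs2 the line of tag 1 lies below the other 3 at low counts (40.6% of cells with at least 1 UMI against 75.1 to 85.3%). For Ptges tag 3 (35.9%) lies above tag 1 (27.2%) but nearer to it than to tags 2 and 4 (69.7 and 72.4%).

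Within a tag the genes varied together only weakly, as a description across cells that share a library. Spearman's rho of Ptgs2 with Ptges was 0.25, 0.24, 0.24 and 0.22 in tags 1 to 4 (2397, 476, 1364 and 1415 thinned cells), and with Pla2g4a 0.25, 0.21, 0.24 and 0.22. With Ptgs1 it was 0.12 to 0.17, with Ptges3 -0.02 to 0.02 and with Ptgis -0.08 to 0.03. In such sparse counts these values are not a finding.

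Across the 13 clusters of at least 100 cells, Pearson's r of log2 CPM was 0.843 for Pla2g4a and Ptges, 0.826 for Pla2g4a and Ptgs1, 0.777 for Pla2g4a and Ptgs2 and 0.697 for Ptgs2 and Ptges, but 0.003 for Ptges and Ptges3. The clusters share 1 library and largely separate by tag. Among 3281 other genes of at least 50 CPM, those most like Ptgs2 were Phlda1 (r = 0.927), Pi15 (0.916) and Lingo2 (0.864), and those most like Ptges were Odc1 (0.939), Sat1 (0.894) and Mmp10 (0.892). Pla2g4a was most like Sema3c (0.955), Dpysl3 (0.953) and Prrx2 (0.935), and Ptgs1 most like Paip1 (0.953), St3gal1 (0.944) and Dpy19l1 (0.934). For Ptges3 these were Dhx15 (0.942), Tsn (0.938) and Sumo2 (0.938), and for Ptgis Mlf2 (0.833), Mmd (0.828) and Slc25a39 (0.766).

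Around the 10 members, the genes that supply arachidonic acid were mixed. Of 17 listed genes of release and remodelling, 11 reached 5 CPM, and 3 of them were higher and 3 lower by at least 1.5 fold in tag 2 than in tag 1, 2 and 1 in tag 3, and 2 and 4 in tag 4. Over all genes of at least 5 CPM, 9.39% were higher and 10.9% lower in tag 2, 7.45 and 8.48% in tag 3, and 10.3 and 9.89% in tag 4. The largest difference was in Anxa1, annexin A1, an inhibitor of phospholipase A2 activity: it stood at 2405 CPM in tag 1, 511 in tag 2, 1066 in tag 3 and 484 in tag 4, a ratio to tag 1 of 0.213 (0.205 to 0.221), 0.443 (0.436 to 0.451) and 0.201 (0.197 to 0.206). The Anxa1 transcript was lowest in the 2 tags where that of Pla2g4a was highest, and a link between them was not tested. Acsl4, which links arachidonic acid to coenzyme A, was at 125, 217, 147 and 179 CPM in tags 1 to 4, and Mboat7, which returns it to phosphatidylinositol, at 24.8, 42.7, 37.6 and 34.8 CPM.

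The other synthases moved little. Of 9 listed, 5 reached 5 CPM, 0 were higher and 1 was lower in each of tags 2, 3 and 4 than in tag 1. Of all genes, 9.39, 7.45 and 10.3% were higher and 10.9, 8.48 and 9.89% lower in these tags. The lower synthase was Akr1b3, an aldose reductase that can also make prostaglandin F2 alpha, at 152, 84.6, 77.0 and 66.2 CPM. The synthases of prostaglandin D2 (Ptgds, Hpgds) and of thromboxane (Tbxas1) were at 3.77 CPM or less in every tag. None of the 6 other prostanoid receptors reached 5 CPM over all cells, the prostacyclin receptor Ptgir being at 1.08 to 2.49 CPM. The thromboxane receptor Tbxa2r, named after its values were seen, was at 9 CPM (7.84 to 10.3) in tag 1 and at 1.08, 0.670 and 0.931 CPM in tags 2, 3 and 4.

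Slco2a1, the carrier that takes prostaglandins into cells, was at 85.9 CPM in tag 1, 133 CPM in tag 3 and only 29.4 and 26.5 CPM in tags 2 and 4, which is 0.342 times (0.290 to 0.402) the level of tag 1 in tag 2 and 1.55 times (1.46 to 1.65) in tag 3. Abcc4, an exporter of prostaglandins, was at 13.9, 16.5, 29.1 and 14.8 CPM. Akr1c18, an aldo-keto reductase, was at 23.8, 35.3, 52.1 and 91.9 CPM and was the 1 gene of this list past 1.5 fold between tags 4 and 2, at 2.60 times (2.24 to 3.03). Of the 7 genes 6 reached 5 CPM, with 0 higher and 1 lower in tag 2 than in tag 1, 3 higher and 0 lower in tag 3, and 1 higher and 1 lower in tag 4. The shares of all genes were 9.39% higher and 10.9% lower in tag 2, 7.45 and 8.48% in tag 3, and 10.3 and 9.89% in tag 4. Of the leukotriene, lipoxygenase and epoxide genes, 11 were in the files and 3 reached 5 CPM: Ephx1, an epoxide hydrolase, was at 100 CPM in tag 1 and at 43.4, 47.1 and 51.1 CPM in tags 2, 3 and 4, and Ephx2 was 1.72 times as high in tag 3 as in tag 1. Between tags 4 and 2, none of the genes of at least 5 CPM of release and remodelling, the other synthases or the leukotriene list passed 1.5 fold in either direction. Of all genes, 2.88% were higher and 1.52% lower.

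Of 17 listed regulators of the Ptgs2 transcript, all at 5 CPM or more, 2 were higher and 2 lower in tag 2 than in tag 1, where 9.39 and 10.9% of all genes were. In tag 3, 1 was higher and 4 were lower, against 7.45 and 8.48% of all genes, and in tag 4 again 2 and 2, against 10.3 and 9.89%. Il1rl1, a receptor of the interleukin family, was at 101, 222, 169 and 536 CPM in tags 1 to 4 and thus 2.41 times as high (2.27 to 2.56) in tag 4 as in tag 2. Fos, a subunit of the AP-1 factor, was lower than in tag 1, at 0.472 and 0.365 times in tags 2 and 3, and the receptor Il1r1 was at 0.499 times in tag 3. Of 12 genes that respond to or carry cyclic AMP signals, 4 were higher and 2 lower in tag 2 than in tag 1, 2 and 1 in tag 3, and 5 and 1 in tag 4. The shares of all genes are those given above beside the regulators. Nr4a2 was at 18.9, 53.4, 37.0 and 78.9 CPM, and the phosphodiesterase Pde4b, which degrades cyclic AMP, at 38.8, 93.8, 28.2 and 86.2 CPM, high in the 2 old tags only. Areg, an epidermal growth factor receptor ligand, was 2.90 times as high in tag 2 as in tag 1, and the hyaluronan synthase Has2 was 2.41 times as high in tag 3. Over the whole list the median ratio to tag 1 was 1.25 in tag 2, 0.957 in tag 3 and 1.05 in tag 4, against 1.02, 1.03 and 1.04 over all genes.

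The direction of the Ptgs2 ratios held under each alternative run, though their size did not. Over 13 alternatives the ratio to tag 1 lay between 1.5 and 6.24 for tag 2, 1.62 and 5.07 for tag 3, and 1.42 and 5.38 for tag 4, with the lowest values where clusters were weighted equally and the highest without called doublets. The ratio of tag 4 to tag 2 lay between 0.756 and 0.956.

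**Figure D5:**
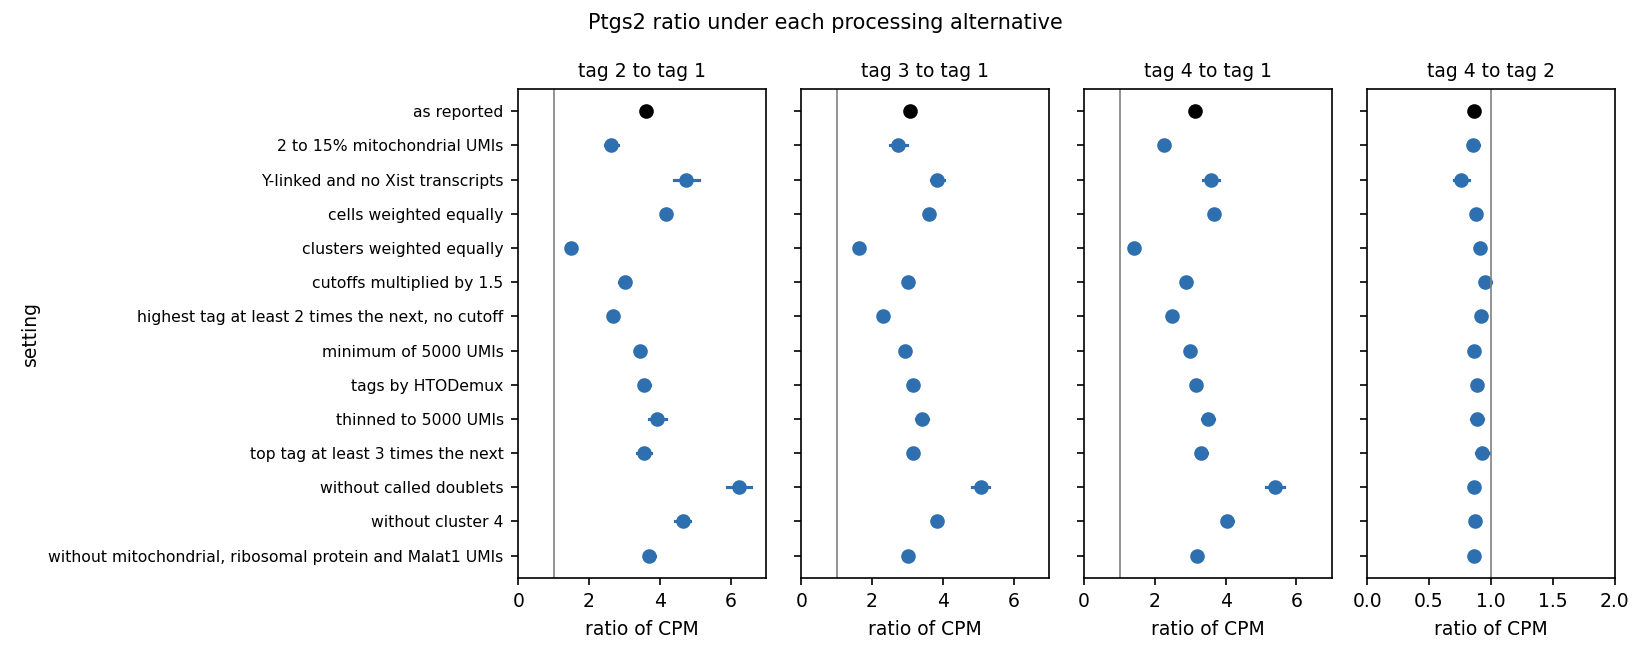
Ratio of Ptgs2 CPM (horizontal axes, from 0) in 4 comparisons of hashtags under each processing alternative; the black point is the reported value, lines are exact binomial 95% intervals where counts allow, and the grey line marks 1. All points of the first 3 panels lie above 1 (1.42 to 6.24) and those of the last below it (0.756 to 0.956).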

How the data were processed

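The authors deposited raw UMI counts of 32285 genes and 4 hashtags over 2472397 barcodes, made with Cell Ranger 4. Neither their genome build nor their annotation is given in the sources used here. Barcodes with at least 200 genes and 2218 UMIs (the 99th percentile of the 10000 deepest, divided by 10) were taken as cells, and a cell got a tag where only that tag exceeded its cutoff (36, 52, 61 and 41 UMIs for tags 1 to 4). All deposited columns were used (0 unused). Clusters were made by Seurat 5.3.0 (R 4.3.3; 2000 variable genes less 18 members and pathway genes, 30 components, 20 neighbours, resolution 0.8) and doublets called with Scrublet in scanpy 1.11.5 (expected rate 0.1; 3058 cells, 23.4%, kept unless stated). CPM and ratios were computed from summed counts, with exact intervals (scipy 1.17.1) for counting error only; UMIs of 1 culture are not replicates. The interval of ratios was tested only on counts simulated with the Poisson error that it assumes. That test cannot show how it covers the spread between cells or cultures. The rule for named genes takes all 10 members, the pathway genes furthest from 1 in each comparison, the 3 genes most like each member, and Piezo1. Members and lists were chosen with earlier results of these data known. Promoter windows came from RefSeq (GRCm38.p6) and gene spans from GENCODE vM21 by Ensembl identifier. Alternatives changed the tag rule, cell filters, depth, weighting, doublets, fold and clustering. Tags by HTODemux and leaving out cluster 4 were added after seeing the data.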

Additional observations from a re-analysis of the deposited data

How the results depend on the processing

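No paired analysis was possible because each group is 1 culture and the labels give no replicate numbers that groups share. The cause of each shift was not tested. The Ptgs2 ratio of tag 2 to tag 1 (3.62 as reported) was 6.24 without called doublets, 4.74 in cells with only Y-linked transcripts, 4.65 without cluster 4, 4.18 with cells weighted equally, 3.93 thinned to 5000 UMIs, 3.44 with at least 5000 UMIs, 3.01 with cutoffs multiplied by 1.5, 2.68 by the highest tag at least 2 times the next with no cutoff, 2.63 at 2 to 15% mitochondrial UMIs and 1.5 with clusters weighted equally. In the same order, tag 3 to tag 1 (3.08) was 5.07, 3.85, 3.83, 3.62, 3.42 and 2.94, then 2.30 by the highest tag, 2.74 by mitochondrial share and 1.62 with equal clusters. Tag 4 to tag 1 (3.13) was 5.38, 3.58, 4.04, 3.67, 3.49, 2.98, 2.87, 2.47, 2.26 and 1.42, and 3.31 with the top tag at least 3 times the next. Tag 4 to tag 2 (0.865) was 0.756 with only Y-linked transcripts, 0.910 with equal clusters, 0.956 with cutoffs multiplied by 1.5, 0.921 by the highest tag and 0.932 with the top tag at least 3 times the next. Between tags 4 and 2, Ptgis turned to 1.01 with only Y-linked transcripts and Ptgs1 to 1.02 with the top tag at least 3 times the next. Members higher by 1.5 fold in tag 2 than in tag 1 (5 as reported) numbered 0 with equal clusters and 3 at a fold of 2. They numbered 4 with tags by HTODemux, thinned to 5000 UMIs, with cells weighted equally or at 2 to 15% mitochondrial UMIs. In tag 3 (2) they numbered 4 with only Y-linked transcripts, with cells weighted equally, without called doublets or without cluster 4, and 1 with equal clusters or a fold of 2. In tag 4 against tag 1 (4) they numbered 0 with equal clusters. Equal weighting of clusters rests on 1 cluster for tags 2 and 1, 3 for tags 3 and 1 and 2 for tags 4 and 1. At this depth the receptors and Hpgd, under 5 CPM, allow only large differences to be seen.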
